A study of Mus musculus with 47 samples.

Results

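The epididymal lipocalins described here are 8 genes of mouse chromosome 2, Lcn5, Lcn6, Lcn8, Lcn9, Lcn10, Lcn12, Lcn13 and Ptgds, out of 23416 genes counted in each library. They were chosen by name. The count tables listed 7 of the 8 under these symbols, and Lcn13 was measured as Obp2a, the symbol under which RefSeq holds it. RNA was sequenced in 10 libraries, 2 per group, from males aged 8 to 12 weeks. The fathers of Ctrl-F1 males were wild type and those of KO-F1 males were littermate Scml2-KO males, in both cases through intracytoplasmic sperm injection (ICSI) of testicular sperm into BDF1 oocytes, and both groups carry the background label BDF2. Scml2 is X-linked and encodes a Polycomb protein of the male germline, so the KO-F1 sons of Scml2-KO fathers were themselves wild type at this gene. KO-F2 males, with the background label BDF3, came from natural mating of single KO-F1 males with C57BL/6 females. Since their KO-F1 fathers were wild type at Scml2, KO-F2 males inherited no mutant allele of it from the Scml2-KO line. Liver was sequenced from Ctrl-F1 and KO-F1 males, and motile spermatozoa of the cauda epididymis, collected by swim-up, from Ctrl-F1, KO-F1 and KO-F2 males. The samples listed include no F2 control spermatozoa. Paternal line, generation, mode of conception, background and sequencing run therefore cannot be told apart where KO-F2 is compared with an F1 group. In each comparison, same-numbered replicates of the 2 groups were different animals.

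Lipocalins are small secreted proteins that fold into a beta-barrel with a pocket for hydrophobic ligands such as retinoids, steroids and fatty acids. A cluster of lipocalin genes is expressed in the epithelium of the epididymis, the duct in which spermatozoa mature, and each gene is known for its own stretch of the duct. Lcn5 encodes the epididymal retinoic acid-binding protein, Lcn8 a related protein of the first part of the duct, and Lcn9 and Lcn10 secreted proteins of the caput. Lcn6 encodes a lipocalin found on the sperm head, and Lcn12 another epididymal lipocalin. Ptgds encodes lipocalin-type prostaglandin D synthase, which converts prostaglandin H2 to prostaglandin D2 and also carries retinoids, and which is abundant in epididymal fluid and semen. The product of Obp2a (Lcn13) is in addition a circulating protein of the liver, known for its effects on glucose and lipid metabolism. Mature spermatozoa are transcriptionally almost silent and carry RNA from spermatogenesis and from their passage through the duct.

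Members of the family differ widely in sequence but share a short signature near the start of the mature protein, glycine, any residue, tryptophan. The coding sequence around it is shown for all 8 genes because it is the feature by which they are read as 1 family. Each run is 30 bases of coding exon in GRCm38.p6, read 5′ to 3′ on the gene's own strand, with the 3 codons of the signature (GGN, any codon, TGG) in capitals. The search covered codons 20 to 60 of each reading frame and found 1 match in each gene.
Ptgds (chr2:25469098-25469127, minus strand): ttcctgGGGCGCTGGtacagcgcgggcctc
Lcn12 (chr2:25493329-25493358, minus strand): tttcagGGAGAGTGGtttgtcctcggtctg
Lcn8 (chr2:25654161-25654190, plus strand): attgcaGGATTCTGGaaggaagtggctgtt
Lcn5 (chr2:25658318-25658347, plus strand): tttttaGGCTTCTGGtatgaaattgccctt
Lcn6 (chr2:25677082-25677111, plus strand): ctcctcGGTCCCTGGtatgtcctggctgtg
Lcn10 (chr2:25683515-25683544, plus strand): ttttcaGGCTTCTGGtacattattgccatc
Obp2a (chr2:25700710-25700739, plus strand): tactctGGGATCTGGtacgcaaaggccatg
Lcn9 (chr2:25823560-25823589, plus strand): atttccGGGACCTGGtacctcgattccata
The capitalized bases were the same in Lcn5 and Lcn10 and different in the other genes. Windows of 75 bases, the read length, were compared by exact match within single exons of lipocalin genes. Reads across exon junctions, mismatches and the rest of the genome were not covered. Among 105 pairs of 15 lipocalin genes, 1 pair, Obp2a and its neighbour Obp2b, had identical windows of read length in its exons (25 windows in a stretch of 99 bases, chr2:25700074-25700172 in Obp2a). Since the authors counted only uniquely aligned reads, reads from that stretch would have been left out of both genes, and Obp2b had 0 or 1 counts in each library. No exon of a member overlapped an exon of another gene.

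The 8 genes lay within 358838 bp (chr2:25466709-25825546). Ptgds and Lcn12 were on the minus strand at its lower end, the 4 genes from Lcn8 to Lcn10 were on the plus strand within 32964 bp, and Lcn9 stood apart at the upper end. As the map of the locus shows, the pair on the minus strand had the highest levels in spermatozoa, the tight block of 4 genes had low levels, and Lcn9 had the highest mean of the genes on the plus strand.

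**Figure D1:**
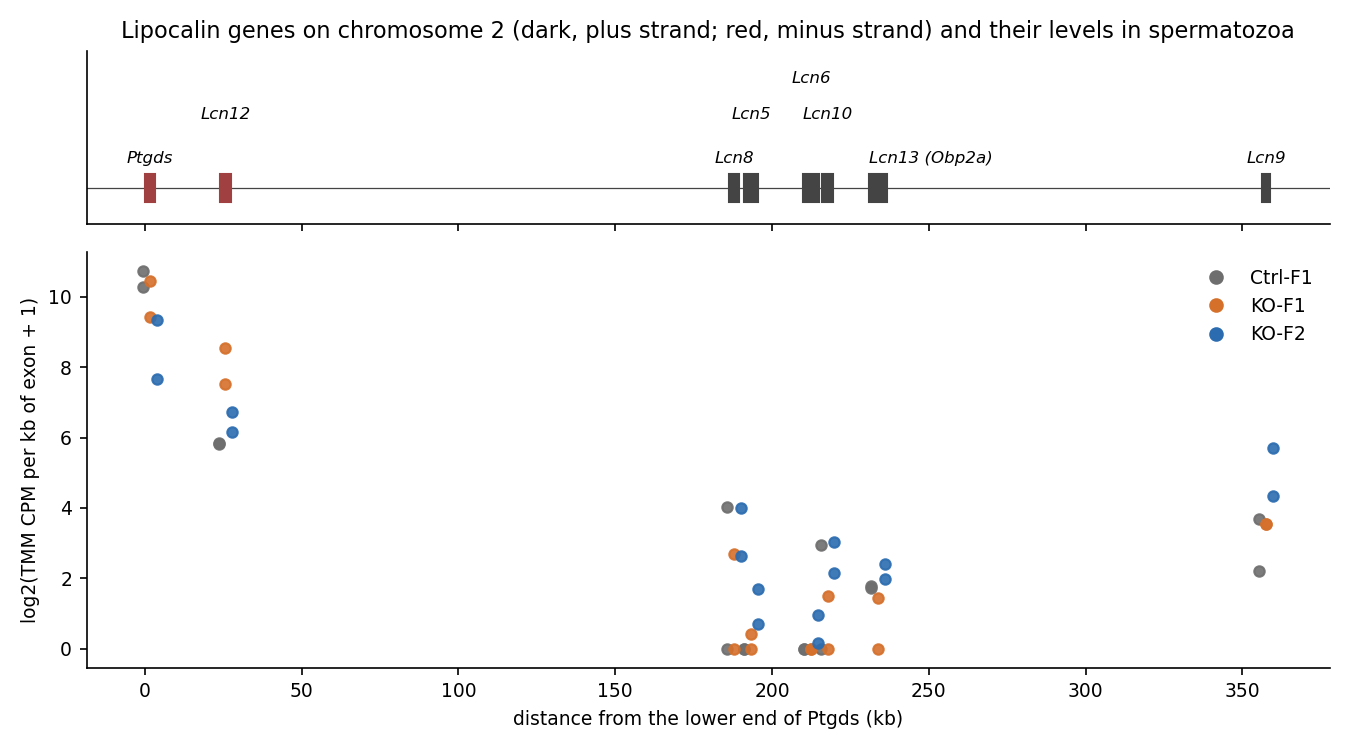
Lipocalin genes along chromosome 2, drawn to scale as the distance in kb from the lower end of Ptgds (top), and the level of each gene in each sperm library as log2(TMM CPM per kb of exon + 1) (bottom, 2 points per group, shifted sideways by group). Ptgds and Lcn12 had the highest levels in all 6 libraries, and several points of Lcn8, Lcn5, Lcn6, Lcn10 and Obp2a lay at 0.

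The libraries differed in depth, and the depth sets what can be said of the low genes. Sperm libraries held 1503733 to 2778171 counts in the F1 groups and 8384266 and 11462105 counts in KO-F2, and liver libraries held 11339729 to 14278900. A count of 0 allows a level of up to 3 counts of the total, which is 1.24 and 2.00 CPM (a depth-scaled count) in the Ctrl-F1 sperm libraries, 1.08 and 1.44 CPM in KO-F1 and 0.262 and 0.358 CPM in KO-F2. Sperm cDNA was amplified by PCR without molecular identifiers, so these limits and all intervals cover counting error only. The ribosomal RNA gene Rn45s took 3.52% to 28.7% of the counts of a sperm library. All 20 genes of a late spermatogenesis list were present in every sperm library, with a summed level of 126490 to 141595 CPM in Ctrl-F1, 47744 to 62585 CPM in KO-F1 and 163752 to 163928 CPM in KO-F2. Scml2 itself had 0 to 18 counts over the sperm libraries and 0 in liver.

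Both KO-F2 sperm libraries held counts of all 8 lipocalins, in very unequal amounts. Each F1 sperm library held counts of 4 or 6 of them, and none held Lcn6. In Ctrl-F1 spermatozoa the members together made up 0.135% (0.130% to 0.139%, 95% Wilson interval) and 0.0842% (0.0797% to 0.0890%) of all counts. They made up 0.108% (0.104% to 0.112%) and 0.149% (0.144% to 0.155%) in KO-F1, and 0.0572% (0.0559% to 0.0586%) and 0.0263% (0.0252% to 0.0274%) in KO-F2. Both KO-F2 libraries thus had the lowest shares, and the Ctrl-F1 and KO-F1 shares overlapped. Because the samples are bulk RNA, fewer cells of a type and less RNA per cell cannot be told apart, here and in all results that follow.

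The order of the members by level per kb of exon was the same in each group by their means, apart from a tie at 0. Ptgds came first, with 1467 ± 340 TMM CPM per kb in Ctrl-F1, 1040 ± 504 in KO-F1 and 424 ± 313 in KO-F2 (SD, n = 2). TMM CPM are CPM scaled by the trimmed mean of M values over the 6 sperm libraries. Lcn12 was second in every group, 26.3 times lower than Ptgds in Ctrl-F1 and 3.75 and 4.86 times lower in KO-F1 and KO-F2. Lcn9 came next, with 7.78 ± 5.88, 10.6 ± 0.0678 and 35.1 ± 22.1 TMM CPM per kb (SD, n = 2), followed by Lcn8, Lcn10, Obp2a, Lcn5 and Lcn6. The libraries of Ptgds, Lcn12 and Lcn9 did not overlap in level per kb in any group. In Ctrl-F1 Lcn9 overlapped with Lcn8 (7.78 against 7.67 TMM CPM per kb on average), and their order there was not set by these libraries. Lcn8 overlapped with Lcn10, and Lcn10 with Obp2a, in every group, and Lcn8 and Lcn10 each had 1 library at 0 in both F1 groups. Lcn5 and Lcn6 tied at 0 in Ctrl-F1, which allows the levels given above.

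Ptgds made up 96.9% and 93.4% of the member counts in Ctrl-F1 spermatozoa, 66.3% and 88.7% in KO-F1 and 83.7% and 58.3% in KO-F2. The remaining members took a larger share in each KO-F1 and KO-F2 library than in either Ctrl-F1 library, mostly as Lcn12 in KO-F1 and as Lcn12 and Lcn9 in KO-F2. Liver had another makeup: there Obp2a took 97.9%, 96.9%, 68.8% and 89.8% of far fewer member counts.

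**Figure D2:**
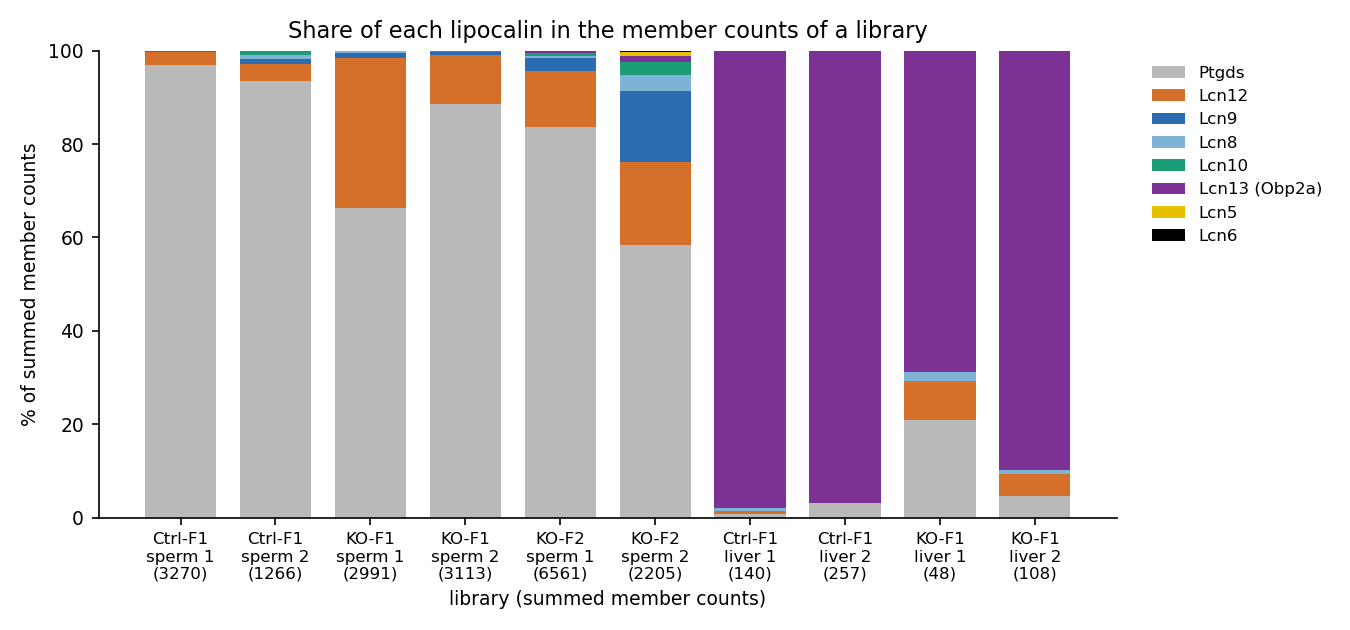
Share of each lipocalin in the summed member counts of a library (stacked bars, in %, with the summed counts under each bar) for 6 sperm and 4 liver libraries. Ptgds fills 58.3% to 96.9% of a sperm bar, and Obp2a (Lcn13) 68.8% to 97.9% of a liver bar.

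The first comparison asks how the spermatozoa of sons of Scml2-KO fathers differed from those of control sons. Lcn12 was the member that stood out. Its levels were 39.9 and 40.0 TMM CPM in Ctrl-F1 (92 and 48 counts) and 267 and 131 TMM CPM in KO-F1 (962 and 321 counts). Both KO-F1 libraries lay above both Ctrl-F1 libraries, although the KO-F1 libraries differed from each other by more than the Ctrl-F1 libraries did. The log2 fold change of Lcn12 was 2.37 (SE 0.49), with an adjusted p = 0.140 in edgeR's quasi-likelihood test, which missed the threshold used throughout (at least a 2-fold difference with an adjusted p below 0.01). DESeq2 gave 2.41 (SE 0.52) with an adjusted p = 0.000215, which did.

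The fitted value of Lcn12 had this sign in each of the 14 alternatives run, with log2 fold changes from 1.77 to 4.16. The lower end came from leaving out KO-F1 replicate 1, the library with 962 counts. edgeR also called it without a filter on low counts (adjusted p = 0.00198) and with a filter of 10 counts in every library (adjusted p = 0.00275). The late spermatogenesis list had the opposite sign in the same libraries: all 20 genes were tested, all 20 were lower in KO-F1 at an unadjusted p under 0.05, and their median log2 fold change was -1.72. Its part in the result for Lcn12 was not tested.

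The other 3 members that passed the filter on low counts did not differ beyond their error. Ptgds had 1374 and 987 TMM CPM in Ctrl-F1 against 551 and 1125 in KO-F1, so that the groups overlapped (log2 fold change -0.43, SE 0.48, edgeR adjusted p = 0.678). Lcn9 had 3.04 and 10.0 TMM CPM in Ctrl-F1 against 8.88 and 8.96 in KO-F1 (log2 fold change 0.55, SE 1.11, edgeR adjusted p = 0.846). Lcn8 was found in 1 library of each group only, with 12 counts in Ctrl-F1 and 13 in KO-F1 (log2 fold change -1.29, SE 2.18, edgeR adjusted p = 0.808). The standard errors of Lcn8 and Lcn9 leave room for changes of more than 2-fold in either direction. Scaling to the late spermatogenesis genes, which moved the median of all genes by 1.78, turned the sign of Ptgds (1.33, adjusted p = 0.0715 in edgeR) and of Lcn8 (0.38), and leaving out Ctrl-F1 replicate 1 turned that of Lcn9 (-0.091).

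The remaining 4 members were too low to be tested in this comparison. Lcn10 had 0 and 9 counts in the Ctrl-F1 libraries and 0 and 5 in those of KO-F1. For Obp2a there were 4 and 2 counts in the controls against 0 and 3 in KO-F1. A single count of Lcn5 was found in KO-F1 replicate 2, and none of Lcn6 in any F1 library, so that no difference was detectable at this depth.

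In all, 4 of 8 members were tested between KO-F1 and Ctrl-F1, 2 with a higher and 2 with a lower fitted value, and 0 were called by edgeR. Over all genes edgeR called 0% of 10785 genes. At an unadjusted p under 0.05 it was 1 of 4 members against 19.5% of all genes tested, and by DESeq2 it was 1 member (Lcn12) of the 2 that received an adjusted p, against 7.68% of 5077 genes. The median log2 fold change was 0.06 over the members tested and 0.02 over all genes tested.

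**Figure D3:**
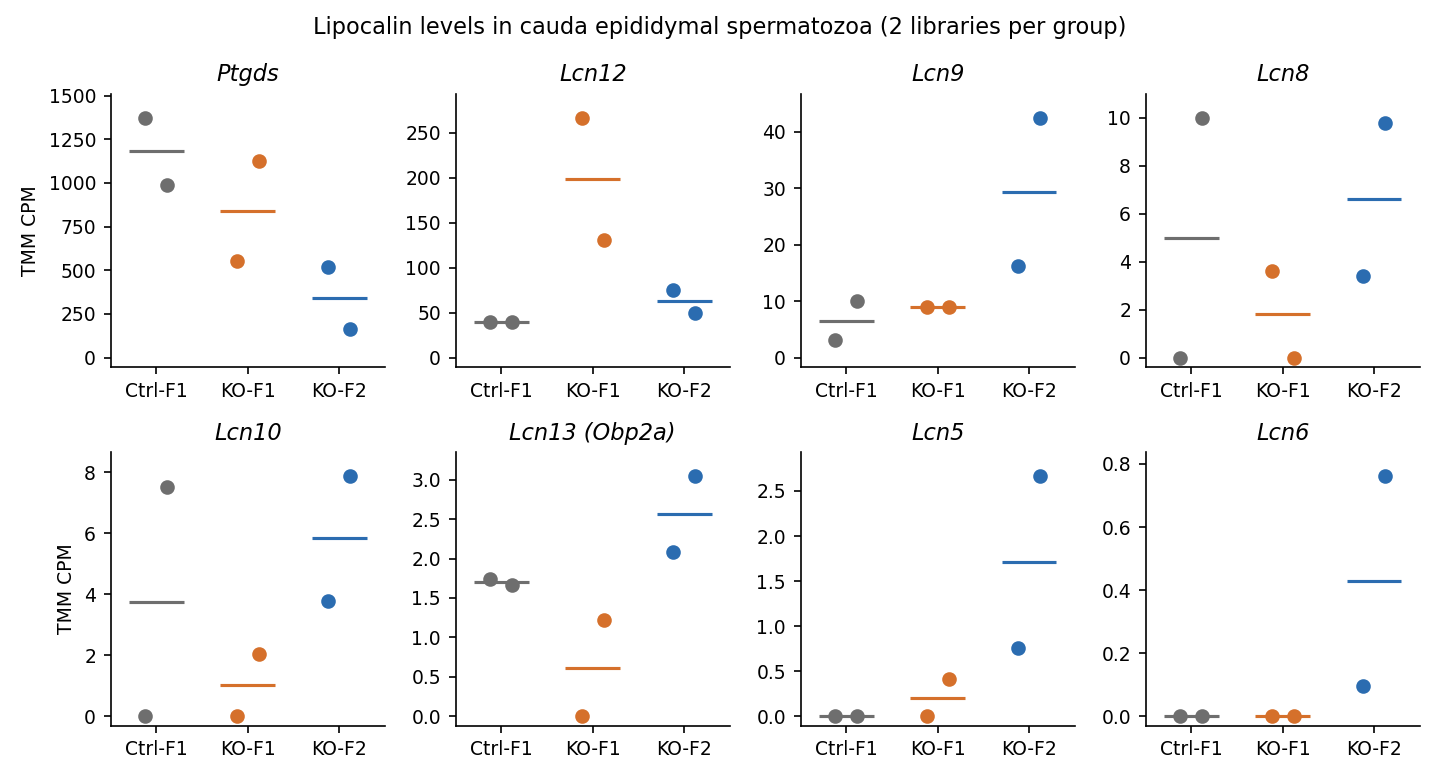
TMM CPM of each lipocalin in the 6 sperm libraries (points; the bar is the mean of 2 libraries), with a separate linear axis for each gene. Lcn12 was highest in KO-F1 (131 and 267), Ptgds was lowest in KO-F2 (163 and 520.1), and Lcn9 was highest in KO-F2 (16.3 and 42.5).

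The second comparison asks the same of the grandsons, whose spermatozoa were set against the only control sperm RNA libraries of the samples listed. Ptgds was lower in KO-F2: its levels were 520.1 and 163 TMM CPM (5491 and 1286 counts), below the 1374 and 987 TMM CPM of Ctrl-F1. The log2 fold change was -1.87 (SE 0.58). The adjusted p was 0.233 in edgeR and 0.0177 in DESeq2, so neither tool called the gene. Without KO-F2 replicate 1 the fold change was -2.88 and without KO-F2 replicate 2 it was -1.24, since the KO-F2 libraries differed widely in level.

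Lcn9 went the other way. It had 172 and 335 counts in KO-F2 and 7 and 12 counts in Ctrl-F1, or 16.3 and 42.5 against 3.04 and 10.0 TMM CPM, and the groups did not overlap. The log2 fold change was 2.19 (SE 0.81), with an adjusted p = 0.293 in edgeR and 0.206 in DESeq2. Leaving out a Ctrl-F1 or KO-F2 library moved it between 1.30 and 3.23.

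Lcn12, the member that stood out in KO-F1, had 74.9 and 50.0 TMM CPM in KO-F2 against 39.9 and 40.0 in Ctrl-F1 (log2 fold change 0.57, SE 0.37, edgeR adjusted p = 0.544). Both KO-F2 libraries were higher than both Ctrl-F1 libraries, but the gap between the groups was smaller than the spread between the KO-F2 libraries.

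The block of genes from Lcn8 to Lcn10 had counts in both KO-F2 libraries, which are also the deepest sperm libraries. Lcn8 had 36 and 77 counts in KO-F2, or 3.41 and 9.78 TMM CPM, against 0 and 10.0 TMM CPM in Ctrl-F1 (log2 fold change 0.45, SE 1.57, edgeR adjusted p = 0.940). Lcn10 had 40 and 62 counts, or 3.79 and 7.87 TMM CPM, against 0 and 7.51 in Ctrl-F1 (log2 fold change 0.71, SE 1.53, edgeR adjusted p = 0.889). The groups overlapped for both genes. Leaving out Ctrl-F1 replicate 1, which had 0 counts of each, turned the fitted values to -0.64 for Lcn8 and -0.40 for Lcn10.

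KO-F2 was the 1 group with more than 3 counts of Lcn5 or Lcn6 in a library. Lcn5 had 8 and 21 counts there, 0.698 and 2.50 CPM. Lcn6 had 1 and 6 counts, 0.0872 and 0.716 CPM. In Ctrl-F1 both were at 0, which allows up to 1.24 and 2.00 CPM, above both values of Lcn6 and between those of Lcn5, and so a difference between KO-F2 and Ctrl-F1 was not detectable at this depth.

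Obp2a had 22 and 24 counts in KO-F2, 2.08 and 3.05 TMM CPM, against 1.74 and 1.67 TMM CPM from 4 and 2 counts in Ctrl-F1 (log2 fold change 0.51, SE 0.91, edgeR adjusted p = 0.861).

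Between KO-F2 and Ctrl-F1, 6 of 8 members were tested, 5 with a higher and 1 with a lower fitted value, and 0 were called by edgeR, which called 0% of all 13149 genes tested. At an unadjusted p under 0.05 it was 2 of 6 members, Lcn9 and Ptgds, against 14.9% of all genes. DESeq2 called 0 of the 6 members with an adjusted p, against 2.15% of 12885 genes. The median log2 fold change was 0.54 over the members tested and 0.07 over all genes tested. Lcn8, Lcn10 and Obp2a passed the filter on low counts only with their KO-F2 counts. The members' median and count of higher values therefore give no size or direction for the family.

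KO-F2 and KO-F1 spermatozoa were then compared directly, since both comparisons above share the Ctrl-F1 libraries and their results are not independent. Lcn12 was lower in KO-F2, at 74.9 and 50.0 TMM CPM against 267 and 131 TMM CPM in KO-F1, with no overlap. The log2 fold change was -1.65 (SE 0.44), with an adjusted p = 0.0389 in edgeR, short of the threshold, and 0.00163 in DESeq2, past it. It was negative in each of the 14 alternatives, from -1.10 without KO-F1 replicate 1 to -3.98 when libraries were scaled to the late spermatogenesis list. Without KO-F1 replicate 2, edgeR called it (-2.13, adjusted p = 0.00199).

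Ptgds also had lower levels in both KO-F2 libraries than in either KO-F1 library (log2 fold change -1.27, SE 0.61, edgeR adjusted p = 0.177). Leaving out 1 library moved this value from -0.62 without KO-F2 replicate 2, and -0.72 without KO-F1 replicate 2, to -2.35 without KO-F2 replicate 1. The 4 other members tested had higher fitted values in KO-F2. For Lcn9 the log2 fold change was 1.72 (SE 0.57, edgeR adjusted p = 0.0721), for Lcn10 2.61 (SE 1.38, adjusted p = 0.216 in edgeR) and for Lcn8 1.78 (SE 1.32, adjusted p = 0.371 in edgeR). For Obp2a the fitted value was 2.19 (SE 1.41, edgeR adjusted p = 0.305). The values of Lcn10, Lcn8 and Obp2a rest on 0 and 5, 13 and 0, and 0 and 3 counts in KO-F1 and are no estimates of a fold. Leaving out 1 library moved Lcn10 from 1.47 without KO-F1 replicate 1 to 8.41 without KO-F1 replicate 2, where edgeR called it (adjusted p = 0.00786) against a KO-F1 library at 0, and moved Lcn8 from 0.82 without KO-F1 replicate 2 to 8.51 without KO-F1 replicate 1. The directions of Lcn8, Lcn9 and Obp2a turned when libraries were scaled to the late spermatogenesis genes, to -0.52, -0.56 and -0.031, a scaling that moved the median of all genes by -2.17.

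Of the 6 members tested between KO-F2 and KO-F1, edgeR called 0, against 2.31% of 13517 genes. At an unadjusted p under 0.05 it was 2 of 6, Lcn9 and Lcn12, against 36.8% of all genes, and DESeq2 called 1 (Lcn12) of 7 members with an adjusted p, against 13.6% of 15085 genes. The median log2 fold change was 1.75 over the members tested and 0.13 over all genes tested. Lcn8, Lcn10 and Obp2a passed the filter on low counts only with their KO-F2 counts, and each had a KO-F1 library at 0. The members' median and count of higher values therefore give no size or direction for the family.

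**Figure D4:**
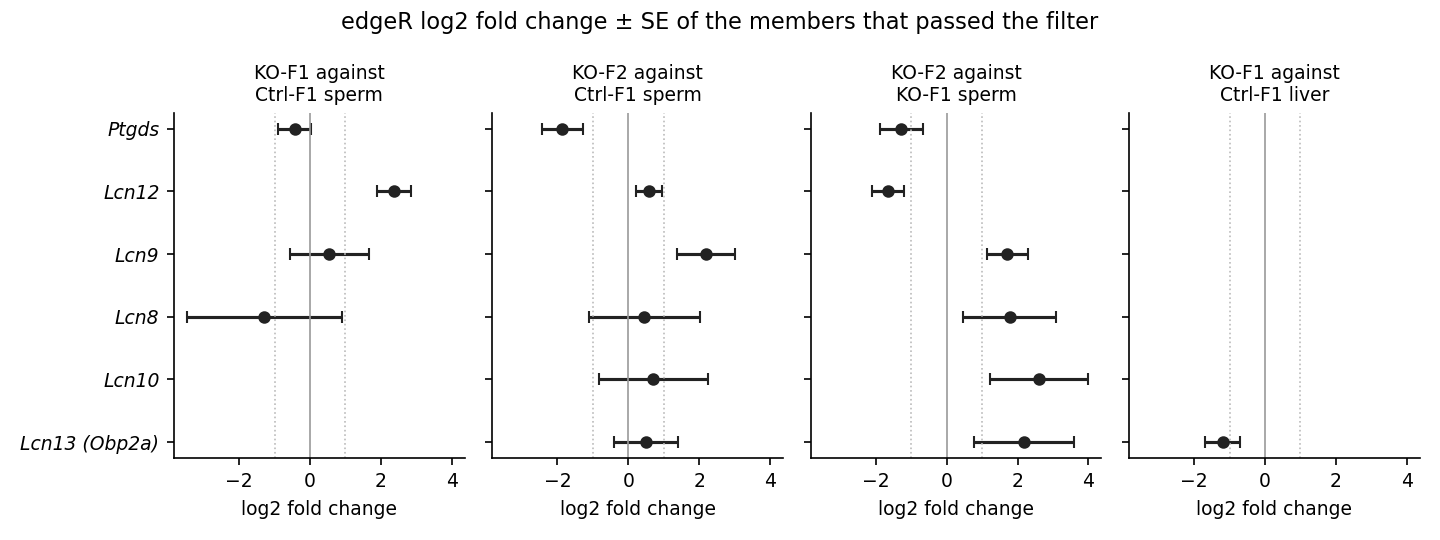
edgeR log2 fold change with its SE (points and bars) of the members that passed the filter in each of the 4 comparisons. The dotted lines mark a fold change of 2. Lcn12 sits at 2.37 between KO-F1 and Ctrl-F1 spermatozoa and at -1.65 between KO-F2 and KO-F1, Ptgds at -1.87 between KO-F2 and Ctrl-F1, and none passed the adjusted p threshold in edgeR.

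The lipocalins are genes of the epididymal epithelium, so markers of the cells of the epididymis were read in the same sperm libraries. Of 7 principal cell markers, the epithelial cells that secrete most epididymal proteins, 5 to 7 had more than 3 counts in every library. Their summed level was 19897 and 6428 CPM in Ctrl-F1, 10147 and 13025 CPM in KO-F1 and 3206 and 1519 in KO-F2, mostly from Crisp1, with Ovch2 at 0 in 3 libraries and Spag11b in 1. Clear cell markers summed to 148 and 249 CPM in Ctrl-F1, 208 and 425 CPM in KO-F1 and 48.2 and 94.5 in KO-F2, with none of the 4 at 0 in any library. Basal cell markers were low, 3.99 to 38.3 CPM, with Krt5 at 0 in 4 libraries and Trp63 in 3. The principal cell sum was lowest in KO-F2, as was Ptgds. The part of these cells in the result for Ptgds was not tested.

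Markers of other cell types were read likewise. The sums of smooth muscle and fibroblast markers, 160 to 603 CPM, overlapped between all groups. By gene, all 7 of these markers tested had lower fitted values in KO-F2 than in Ctrl-F1 (median on the log2 scale -1.34), and 7 of 8 did so against KO-F1 (median -0.94), and none was called by edgeR or DESeq2. The part of these cells in the result for Ptgds was not tested. Among leukocyte markers, Cd52, which the epididymal epithelium makes as well, took 76.2% to 99.9% of the list's counts. Cd52 had 6718 and 2387 CPM in Ctrl-F1, 30705 and 12135 CPM in KO-F1 and 3030 and 1411 in KO-F2, and thus was highest in KO-F1, as was Lcn12. Its log2 fold change between KO-F1 and Ctrl-F1 was 1.80 (SE 0.64, edgeR adjusted p = 0.185), and DESeq2 called it, and its part in the result for Lcn12 was not tested. The rest of that list summed to 25.5 and 88.4 CPM in the controls, 35.3 and 37.9 in KO-F1 and 456 and 439.9 in KO-F2, with the B cell genes Cd79a and Cd79b at 0 to 7 counts in each F1 library and at 846 to 1914 in KO-F2. Between KO-F2 and KO-F1, Cd79a, Cd79b and Ptprc were called higher. The part of these cells in the higher values of Lcn9 and its neighbours in KO-F2 was not tested. Of 6 hepatocyte markers none had more than 3 counts in an F1 sperm library, and 3 and 2 did in the KO-F2 libraries, with summed levels of 4.62 and 3.46 CPM, and their part in the KO-F2 values was not tested.

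**Figure D5:**
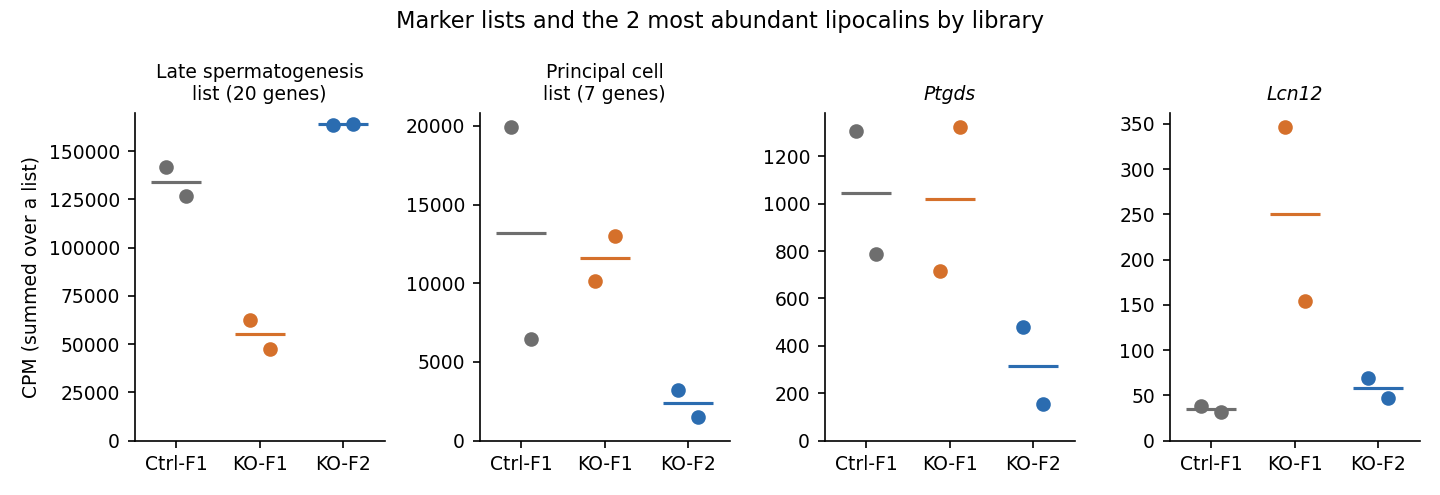
CPM in the 6 sperm libraries (points, mean as a bar) of the late spermatogenesis list and the principal cell list, each summed, and of Ptgds and Lcn12. The late spermatogenesis sum was lowest in KO-F1 (47744 and 62585), where Lcn12 was highest, and the principal cell sum was lowest in KO-F2 (1519 and 3206), where Ptgds was lowest.

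Secreted proteins of the epididymis other than lipocalins gave the nearest point of reference. Of 28 epididymal secretory genes, 5 of which are also in the principal cell list, 18 were tested between KO-F1 and Ctrl-F1, with 9 higher and 9 lower fitted values, and edgeR and DESeq2 called none, with 3 at an unadjusted p under 0.05. Their median log2 fold change was 0.05, against 0.02 over all genes tested. Between KO-F2 and Ctrl-F1, 23 were tested, 12 with higher and 11 with lower fitted values and a median of 0.17 against 0.07 over all genes. edgeR called none, with 6 at an unadjusted p under 0.05, and DESeq2 called 5 lower. These were Clu, which encodes the chaperone clusterin, and the 4 most abundant genes of the list: Crisp1, a sperm-coating protein (log2 fold change -2.63, SE 0.70), Spink8, a protease inhibitor (-2.15, SE 0.62), Adam7, a membrane protein transferred to spermatozoa (-2.41, SE 0.43), and Ces5a, an epididymal carboxylesterase (-2.34, SE 0.43). Ptgds, at -1.87, had the same sign as these 4, and Lcn9, at 2.19, the opposite one. Lcn9 shared its sign with the 12 genes of the list that had higher fitted values. Crisp1 stood at 18255 and 5448 CPM in the Ctrl-F1 libraries, at 9227 and 11544 CPM in those of KO-F1 and at 2856 and 1260.3 CPM in those of KO-F2. Between KO-F2 and KO-F1, 23 were tested, with 11 higher and 12 lower fitted values, a median of -0.69 against 0.13 over all genes, and 13 at an unadjusted p under 0.05. edgeR called none of them, and DESeq2 called 1 higher (Cst8) and 6 lower.

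Lcn12 was set beside the genes that handle retinoids, the ligands of several epididymal lipocalins. Of 21 such genes 13 were tested between KO-F1 and Ctrl-F1, 9 with higher and 4 with lower fitted values and a median of 0.34 against 0.02 over all genes. edgeR called none, with 2 at an unadjusted p under 0.05. Aldh1a1, an enzyme that makes retinoic acid, had 180 and 102 CPM in Ctrl-F1, 735 and 443 CPM in KO-F1 and 209 and 143 in KO-F2, and thus was highest in the same 2 libraries as Lcn12 (log2 fold change 1.62, SE 0.43, edgeR adjusted p = 0.140). DESeq2 called this difference. Crabp2, a cellular retinoic acid-binding protein, and Rxrb, a retinoid receptor, had log2 fold changes of 1.09 (SE 0.49) and 0.69 (SE 0.55) and were not called. Between KO-F2 and KO-F1, 4 of 13 tested genes of this list had higher and 9 had lower fitted values, with a median of -0.35. There edgeR called 1 gene of the list, and DESeq2 called 3 lower, Aldh1a1 and Crabp2 among them. Between KO-F2 and Ctrl-F1 none of 12 was called by edgeR or DESeq2, and 1 was at an unadjusted p under 0.05.

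Ptgds was set beside the other genes of prostaglandin synthesis, transport and reception. Of 17 such genes listed, 10, 13 and 14 were tested between KO-F1 and Ctrl-F1, KO-F2 and Ctrl-F1, and KO-F2 and KO-F1, and edgeR called none in any of them, with 1, 5 and 7 at an unadjusted p under 0.05. Higher fitted values were found for 5, 5 and 6 of them, and the median log2 fold changes were -0.15, -0.37 and -0.31. Ptgs1, the cyclooxygenase that provides the substrate of Ptgds, had 310 and 103 CPM in Ctrl-F1, 209 and 351 CPM in KO-F1 and 75.4 and 93.2 in KO-F2. Its log2 fold change between KO-F2 and Ctrl-F1 was -1.41 (SE 0.49, edgeR adjusted p = 0.259). Ptges, the synthase of prostaglandin E2, had 239 and 99.1 CPM in Ctrl-F1, 244 and 231 CPM in KO-F1 and 61.7 and 57.7 in KO-F2 (log2 fold change between KO-F2 and Ctrl-F1 -1.63, SE 0.42, edgeR adjusted p = 0.212). DESeq2 called Ptgs1 and Ptges lower in KO-F2 than in KO-F1. Hpgd, which degrades prostaglandins, and Ptges3, another E2 synthase, had log2 fold changes of 0.01 (SE 0.37) and -0.01 (SE 0.37) between KO-F2 and Ctrl-F1.

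Lipocalins made outside the epididymis were mostly low in spermatozoa. Of 13 other family genes in the tables, 10 were at 0 in all 4 F1 sperm libraries and had at most 10 counts in a KO-F2 library. Apod, a lipocalin of many tissues, had 28.8 and 98.4 CPM in Ctrl-F1, 118 and 154 CPM in KO-F1 and 83.2 and 118 in KO-F2. Lcn2, an iron-siderophore carrier of innate immunity, had 7.94 to 36.0 CPM, and C8g, a chain of complement C8, 4.66 to 20.9 CPM. These 3 were the genes tested, and neither edgeR nor DESeq2 called any in the 3 sperm comparisons, with 0 at an unadjusted p under 0.05.

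Genes outside the members were ranked by the likeness of their level to the mean of the lipocalins over the 6 sperm libraries. The ranking covered 7614 genes with a mean of at least 10 TMM CPM. Likeness was Pearson's r of log2(TMM CPM + 1) with the mean of that quantity over the 8 members, which was 2.41 and 3.34 in the controls, 2.84 and 2.97 in KO-F1 and 3.29 and 3.72 in KO-F2. The 6 genes with the highest r were Cryzl1 (0.998), Ube2b (0.993), Fgfr1 (0.991), C1qa (0.987), Fto (0.979) and Shb (0.977). They are the extreme of a ranking over 6 libraries that fall into 3 groups and share their depth, so no test is given. Cryzl1 had 7 and 15 counts in Ctrl-F1, 20 and 18 counts in KO-F1 and 129 and 159 in KO-F2. These counts are not scaled for depth, and the KO-F2 libraries are the deepest sperm libraries. They therefore do not show its level on the scale of the score. No member of the lists above was among the 6. The members themselves did not share 1 profile, so their mean does not stand for each of them. Pearson's r of Ptgds with every other member was negative, from -0.92 (Lcn9) to -0.03 (Lcn12). That of Lcn12 was negative with every other member too, from -0.03 (Ptgds) to -0.84 (Obp2a). By rank (Spearman's rho), Lcn12 had positive values with Lcn5 (0.15) and Lcn9 (0.03) and negative values with the rest. Among the remaining members Pearson's r ran from 0.18 (Lcn8 with Obp2a) to 0.94 (Lcn5 with Lcn6). Lcn5 and Lcn6 had at most 1 count in any F1 library. Their r therefore rests on the deeper KO-F2 libraries, with 8 and 21 counts of Lcn5 and 1 and 6 of Lcn6.

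Liver was sequenced from the same F1 groups with a strand-specific mRNA kit. Tissue and kit cannot be told apart, so levels in liver and spermatozoa were not tested against each other. Obp2a was the 1 lipocalin of the 8 with more than 10 counts in any liver library. It had 137 and 249 counts in Ctrl-F1, 9.75 and 16.8 TMM CPM over the 4 liver libraries, and 33 and 97 counts in KO-F1, 2.69 and 8.94 TMM CPM. Both KO-F1 libraries were lower than both Ctrl-F1 libraries, but the spread within each group was larger than the gap between the nearest libraries of the 2 groups.

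The log2 fold change of Obp2a in liver was -1.20 (SE 0.50, edgeR adjusted p = 0.527), and 0 of the 1 member tested was called, with edgeR calling 0% of 11505 genes. It was 1 of 1 at an unadjusted p under 0.05, against 9.41% of all genes, and DESeq2 did not call it (adjusted p = 0.495) while calling 0.271% of 7379 genes. Leaving out 1 library moved the value from -0.55 without KO-F1 replicate 1 to -2.29 without KO-F1 replicate 2, and edgeR called it without Ctrl-F1 replicate 1 (-1.53, adjusted p = 0.00489). It was called in none of the other alternatives run in liver. The 6 hepatocyte markers summed to 107483 to 119507 CPM in all 4 livers.

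The other members were at or near the limit of detection in liver, which is 0.210 to 0.265 CPM. Ptgds had 1 and 8 counts in the Ctrl-F1 livers against 10 and 5 in those of KO-F1, and Lcn12 had 1 and 0 against 4 and 5. Lcn8 had at most 1 count per library. Lcn5, Lcn6, Lcn9 and Lcn10 had none in any of the 4 livers. None of these was tested.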

How the data were processed

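The values used are raw read counts per gene symbol, which the authors deposited as 1 table per library. According to their methods, single-end reads of 75 bases were aligned to GRCm38 (mm10) with HISAT2 2.1.0, and uniquely aligned reads were counted with featureCounts. The annotation and strand setting are not given in the sources used here. Of 23420 lines per table, 4 lines, from 2 symbols that occur repeatedly, were dropped, which left 23416 genes. The other 37 of 47 samples were not analysed here.

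Groups were compared 2 libraries against 2 with edgeR 4.0.16 in R 4.3.3 (TMM, filterByExpr with a minimum count of 10 and a minimum total of 15, quasi-likelihood F test without covariates, Benjamini-Hochberg adjustment over all genes tested). A gene counted as called with at least a 2-fold difference and an adjusted p below 0.01. DESeq2 1.42.0 was an alternative and gives some genes no adjusted p. An exact permutation test of 2 against 2 cannot give a two-sided p under 0.333. The fits were tested on simulated counts. The p-values measure the spread between these few animals, and their depth of 1503733 to 14278900 counts per library sets the limits given with the low genes.

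Positions, exon lengths and sequences are from RefSeq (GRCm38.p6). The members and all lists were chosen with earlier results of these data known. Named beside the members are at most the 4 most abundant genes of a list in spermatozoa, genes called, and the 6 genes with the highest r with the members' mean. Results of some list genes are not reported here. Marker genes at 0, and genes called by DESeq2 alone, were named after their values were seen. Shares and ratios among members and the crossed block in liver were also added after seeing the data. The KO-F2 labels name a sequencing run and the F1 sperm labels name none.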

Additional observations from a re-analysis of the deposited data

How the results depend on the processing

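Alternatives for the 4 counts of members called left 44 counts at 0 and raised 10, and those for the 17 member fold changes kept direction and side of the threshold in 191 cases, passed the threshold in 13 and turned the sign in 10; a cause for these changes was not tested. Between KO-F1 and Ctrl-F1 spermatozoa 1 member (Lcn12) was called by DESeq2, without a filter and with at least 10 counts in every library. Between KO-F2 and KO-F1, 1 member (Lcn12) was called by DESeq2 and without a filter, 2 (Lcn12, Lcn9) with at least 10 counts in every library and 2 (Lcn12, Ptgds) when scaled to the late spermatogenesis genes. Leaving out 1 library gave 0 called members in both comparisons with Ctrl-F1 spermatozoa, 0 to 2 between KO-F2 and KO-F1 (2 without KO-F1 replicate 2, Lcn12 and Lcn10) and 0 to 1 in liver (Obp2a, without Ctrl-F1 replicate 1), with the single library left assumed to vary like the other group.

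Scaling to the late spermatogenesis genes turned the log2 fold change of KO-F1 against Ctrl-F1 to 0.38 for Lcn8 and 1.33 for Ptgds, that of KO-F2 against Ctrl-F1 to -0.032 for Lcn8, and that of KO-F2 against KO-F1 to -0.52 for Lcn8, -0.56 for Lcn9 and -0.031 for Obp2a. Leaving out 1 library moved Lcn9 from -0.091 to 1.60 in KO-F1 against Ctrl-F1, and, in KO-F2 against Ctrl-F1, Lcn8 from -0.64 to 8.50 (-0.56 without KO-F2 replicate 2) and Lcn10 from -0.40 to 8.33, the upper ends with 0 counts in the control left. Same-numbered replicates of the 2 groups compared were different animals, with correlations of deviations of -0.01, 0.16, 0.06 and -0.16. A replicate block raised the genes called between KO-F2 and Ctrl-F1 from 0 to 362, with 1 member among them (Ptgds, -2.06, adjusted p = 3.51e-05), and called 0 members elsewhere. In liver the block called 2 genes and the crossed block, added after seeing the data, 0.

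Over all genes, edgeR's 0 calls between KO-F1 and Ctrl-F1 became 113 without a filter, 200 with at least 10 counts and 390 in DESeq2. The 0 between KO-F2 and Ctrl-F1 became 39, 1 and 277, 2 in a fit of all 6 libraries, and 35 to 277 without 1 library. The 312 between KO-F2 and KO-F1 (285 higher) became 2552 (1841), 1805 (1304) and 2059 (1401), 0 with library totals, 599 (172) with totals without Rn45s, 5077 (41) when scaled to the late spermatogenesis genes, 692 (571) with thinned counts, 819 (665) with the block, 198 (168) in the fit of all 6, and 230 to 2898 without 1 library. The 0 in liver became 25, 1 and 20, and 4 to 107 without 1 library.

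CPM on library totals kept 21 of 24 group levels within 1 SD of the TMM value and moved Lcn9 in KO-F1 to 11.0, Lcn12 in Ctrl-F1 to 34.9 and Obp2a in Ctrl-F1 to 1.49 CPM. Depth limits the F1 sperm libraries most.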

Other observations

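Ratios between members within 1 library need no normalization between libraries. Such ratios were chosen after the levels had been seen. For every 100 Ptgds counts, Ctrl-F1 spermatozoa held 2.90 and 4.06 Lcn12 counts, KO-F1 spermatozoa 48.5 and 11.6, and KO-F2 spermatozoa 14.4 and 30.6. All 4 libraries of Scml2-KO descent lay above both Ctrl-F1 libraries, and the KO-F1 and KO-F2 libraries overlapped. For every 100 Ptgds counts Lcn9 had 0.221 and 1.01 counts in the controls, 1.61 and 0.797 in KO-F1 and 3.13 and 26.0 in KO-F2. For every 100 Lcn12 counts it had 7.61 and 25.0 in the controls, 3.33 and 6.85 in KO-F1 and 21.7 and 85.0 in KO-F2, so that both KO-F1 libraries lay below the rest. A ratio shows that 2 genes changed unequally and not which of them changed. No test was made of these ratios.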
